A study of Mus musculus with 45 samples.

Results

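In all, 10 genes of cytosolic nucleic acid sensing were followed in MEFs, fibroblasts cultured from mouse embryos, among the 37991 genes counted. They were chosen by name, with no threshold on a measured value but with earlier results of these data known. All 10 have a row in the counts. Of these, 3 encode the RNA helicases of the RIG-I family (Ddx58 for RIG-I, Ifih1 for MDA5 and Dhx58 for LGP2), and another pair encodes receptors with other outputs, the kinase PKR (Eif2ak2) and ZBP1. The remaining 5 encode the DNA sensor cGAS (Mb21d1), the adaptors MAVS and STING (Mavs, Tmem173) and the kinases TBK1 and IKKe (Tbk1, Ikbke). The question asked was whether these genes stand high in p53-deficient cells before any stimulus. The time courses then show how each gene moved after LPS, IL-1b and TNF.

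The cells were primary C57BL/6 MEFs of 2 genotypes, p53-/- (called p53KO here) and WT from the same litters, all starved overnight in 0.5% serum. They received lipopolysaccharide (LPS, 100 ng/ml), a bacterial outer membrane component, or one of the cytokines interleukin-1 beta (IL-1b, 10 ng/ml) and tumour necrosis factor (TNF, 10 ng/ml). Libraries of poly(A) RNA were made at 0, 0.5, 1, 3 and 8 h, with separate 0 h libraries for each stimulus, which gave 45 libraries. p53KO had 2 biological replicates, called the lines KO-1 and KO-2 here, in each of 15 groups, and WT had 1. p53 deficiency served to lengthen the life of the cultures. WT is 1 replicate, so genotype and culture cannot be told apart, and whether the p53KO replicates came from separate embryos is not stated, so p-values measure the spread between these samples. No unstimulated library after 0 h is among those used here, so a change with time in culture cannot be told apart from a response.

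The RIG-I-like helicases bind double-stranded RNA or the ends of viral RNA. RIG-I and MDA5 pass the signal to MAVS on mitochondria, while LGP2, which lacks the signalling domain, modulates them. cGAS makes a cyclic dinucleotide when it meets DNA in the cytosol, and that messenger activates STING. Both arms converge on TBK1 and IKKe, which phosphorylate IRF3 and so switch on interferon beta. Secreted interferon then acts through its receptor and transcription factors on the interferon-stimulated response element (ISRE) of many genes, those of several sensors among them. LPS reaches the same kinases from its receptor TLR4 through the adaptor TRIF, encoded by Ticam1.

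RefSeq promoter windows on GRCm38.p6, which run from 250 bases before to 50 after the start of each gene, were available for 7 of the 10 genes. They are shown because the genes differed in their response to LPS and because an ISRE core is present in some windows. The core was searched as GAAA, any 2 bases and GAAA again, on both strands. It occurred in the windows of Ddx58, Ifih1 and Eif2ak2, and in 3.44% of all 32851 windows of this length. No match of these letters was found in the windows of Mavs, Mb21d1, Tbk1 and Ikbke. Of these, Mb21d1, Tbk1 and Ikbke rose at 3 and 8 h of LPS in p53KO, so genes without a match rose too. The kappaB consensus, the motif of NF-kB, had a match in none of the 7 windows and in 4.51% of all windows. Positions count from 1 at the first transcribed base, capitals mark the match, and each stretch is given 5′ to 3′ in the direction of its gene. The first stretch is chr4:40239796-40240075 on the minus strand, with the match on the opposite strand of the gene at 3 to 12, and the second is chr2:62646206-62646235, minus strand, with the match at 33 to 42. The third is chr17:78882543-78882822 on the minus strand, with the match at 19 to 28. The last, chr2:131233813-131234092 on the plus strand, is the window of a gene whose level rose after LPS at neither 3 nor 8 h, and holds no match.
Ddx58: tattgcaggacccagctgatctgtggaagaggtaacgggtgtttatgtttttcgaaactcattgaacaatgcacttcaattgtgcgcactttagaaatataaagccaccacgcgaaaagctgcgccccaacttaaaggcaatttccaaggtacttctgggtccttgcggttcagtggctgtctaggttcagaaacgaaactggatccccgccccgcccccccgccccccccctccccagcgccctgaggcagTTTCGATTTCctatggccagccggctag
Ifih1: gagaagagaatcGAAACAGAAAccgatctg
Eif2ak2: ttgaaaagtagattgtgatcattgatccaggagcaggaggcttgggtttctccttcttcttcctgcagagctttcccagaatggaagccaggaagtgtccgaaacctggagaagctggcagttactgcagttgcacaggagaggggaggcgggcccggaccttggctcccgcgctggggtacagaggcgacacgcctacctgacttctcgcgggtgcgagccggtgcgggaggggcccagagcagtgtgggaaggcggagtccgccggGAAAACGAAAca
Mavs: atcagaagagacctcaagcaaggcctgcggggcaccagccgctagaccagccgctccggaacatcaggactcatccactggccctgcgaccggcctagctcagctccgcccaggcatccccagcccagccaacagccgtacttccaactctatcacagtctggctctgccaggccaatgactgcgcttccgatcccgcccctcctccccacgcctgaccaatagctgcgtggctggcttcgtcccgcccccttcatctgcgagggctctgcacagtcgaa

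Gene counts per library totalled 5619870 to 15355994 (median 9347770). Levels are given as CPM, the counts scaled to a common library size with TMM factors, and differences on the log2 scale with SE. A call needed an adjusted p under 0.05 by edgeR's quasi-likelihood test over all genes, and "rose" and "fell" are used of calls alone. Trp53, the gene of p53, stood at 50.9 to 86.6 CPM in KO-1 and 53.9 to 83.2 CPM in KO-2, against 158 to 293 CPM in WT (15 libraries each), with a log2 difference at 0 h of -1.61 (SE 0.085, adjusted p = 8.91e-10). Whether the remaining reads lie outside the deleted part was not examined. Fibroblast markers summed to between 30971 and 36110 CPM at 0 h in all 3 lines, while single markers differed between genotypes. Of the 10, Dcn, Pdgfra and Col3a1 were higher in p53KO (log2 0.65, 0.47 and 0.34) and Thy1 and Vim lower (log2 -0.94 and -0.69), and their part in the sensor differences was not tested. Markers of T and dendritic cells summed to at most 0.235 CPM at 0 h, with Siglech at 0 in all 45 libraries. Of 6 epithelial markers 3 could be tested at 0 h: the keratin genes Krt8 and Krt18 were higher in p53KO (log2 2.30 and 2.03), and Krt14 differed by -0.43 without passing. Of 3 endothelial markers tested, Kdr was higher in p53KO (log2 1.06). Markers of macrophages were present in every library, among them Lyz2 at 143 to 415 CPM and Csf1r at 31.0 to 54.9 CPM. At 0 h the 10 macrophage markers summed to 307 to 385 CPM in p53KO and 410 to 430 CPM in WT. Tested gene by gene, 1 of the 10 was higher and 1 lower in p53KO, against 14% and 11.6% of all genes. Their median log2 difference was 0.03, beside 0.01 over all genes. In bulk RNA, fewer cells of a type and less RNA per cell cannot be told apart.

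Before any stimulus, the RNA sensor genes Ddx58, Ifih1 and Eif2ak2 were higher in p53KO than in WT. The helicase gene Dhx58, the DNA sensor, the adaptors and the kinases did not pass in the same test. Zbp1 had too few counts to be tested. Whether RNA sensors differ from the other genes as a class was not tested. Counts of the 3 libraries at 0 h were summed for each line, and 2 p53KO lines were compared with 1 WT line with 1 residual degree of freedom. Of the 9 genes that could be tested, 3 were higher and 0 lower in p53KO, while 14% of the 12993 genes tested were higher and 11.6% lower. The median log2 difference was 0.06 over the 9 and 0.01 over all genes.

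Ddx58 (ENSMUSG00000040296, chromosome 4, 40150806 to 40186861 on the minus strand of mm9) had 51.5 to 54.4 CPM in the 3 KO-1 libraries and 38.6 to 44.7 CPM in the 3 KO-2 libraries, against 28.4 to 32.5 CPM in the 3 WT libraries. All 6 p53KO libraries lay above the WT libraries. Its mean was 47.6 ± 6.47 CPM in p53KO and 30.01 ± 2.16 CPM in WT (SD over 6 and 3 libraries, which share 2 lines and 1 line), and the log2 difference was 0.67 (SE 0.12, adjusted p = 0.000893). Ifih1 (ENSMUSG00000026896, chromosome 2, 62433855 to 62484312, minus strand) had 15.1 to 15.9 CPM in KO-1 and 9.48 to 11.3 CPM in KO-2, against 7.04 to 8.10 CPM in WT. Again no p53KO library fell within the WT range, with a log2 difference of 0.75 (SE 0.21, adjusted p = 0.0141). Eif2ak2 (ENSMUSG00000024079, chromosome 17, 79251904 to 79281913, minus strand), whose product halts translation when it binds double-stranded RNA, had 58.4 to 65.1 CPM in KO-1 and 45.9 to 52.9 CPM in KO-2, against 41.0 to 45.8 CPM in WT. The lowest KO-2 library, at 45.89 CPM, barely cleared the highest WT library, at 45.84 CPM, and the log2 difference was 0.36 (SE 0.12, adjusted p = 0.0371).

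In all 3 genes, every 0 h library of KO-1 lay above every one of KO-2. From the summed counts, Ifih1 stood at 15.4 CPM in KO-1 and 10.1 CPM in KO-2, against 7.57 CPM in WT. Without KO-1 the log2 differences were 0.49 for Ddx58, 0.41 for Ifih1 and 0.19 for Eif2ak2. Without KO-2 they were 0.82, 1.02 and 0.50 in the same order, and these values have no test. The calls of Ifih1 and Eif2ak2 were also lost with DESeq2 (adjusted p = 0.113 and 0.235) and without the TNF series at 0 h (adjusted p = 0.0607 and 0.0512). Eif2ak2 lost its call without the IL-1b series at 0 h too (adjusted p = 0.194).

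Dhx58 (ENSMUSG00000017830, chromosome 11, 100556018 to 100565585, minus strand) had 2.02 to 3.24 CPM in the 6 p53KO libraries and 1.18 to 2.04 CPM in the 3 WT libraries. These ranges overlapped, and the log2 difference of 0.65 (SE 0.32) did not pass (adjusted p = 0.147). Zbp1 (ENSMUSG00000027514, chromosome 2, 173032113 to 173044424, minus strand), whose product binds left-handed double-stranded nucleic acid and can start necroptosis, was near the limit of detection. It had 46 counts in the 6 p53KO libraries and 9 in the 3 WT libraries, a ratio of 2.12 per library size (95% interval 1.03 to 4.93 for counting error alone), and was left out of the test by the filter on low counts. In the 0 h tests that kept it, it did not pass (adjusted p = 0.203 with no filter and 0.478 without the IL-1b series). WT held 7 of its 9 counts in the TNF library.

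For cGAS, the adaptors and the kinases, no difference passed in this test. Mavs (ENSMUSG00000037523, chromosome 2, 131059799 to 131073761, plus strand) had 26.9 to 33.0 CPM in the 6 p53KO libraries and 33.6 to 34.6 CPM in WT, ranges that did not overlap, with a log2 difference of -0.19 (SE 0.10, adjusted p = 0.187). Tbk1 (ENSMUSG00000020115, chromosome 10, 120983511 to 121023850, minus strand) had 34.3 to 44.3 CPM in p53KO and 43.9 to 48.1 CPM in WT, with a log2 difference of -0.24 (SE 0.09, adjusted p = 0.0739). Mb21d1 (ENSMUSG00000032344, annotated as Cgas, chromosome 9, 78278333 to 78291044, minus strand) had 7.32 to 10.46 CPM in p53KO and 8.23 to 12.03 CPM in WT, with a log2 difference of -0.30 (SE 0.15, adjusted p = 0.142). For Tmem173 (ENSMUSG00000024349, chromosome 18, 35893332 to 35900208, minus strand) the log2 difference was 0.06 (SE 0.10). For Ikbke (ENSMUSG00000042349, chromosome 1, 133150920 to 133176183, minus strand) it was 0.01 (SE 0.14), with 9.02 to 10.6 CPM in p53KO and 9.54 to 9.98 CPM in WT. With the 0 h libraries fitted as separate samples, which share lines, 6 of the genes passed: Ddx58, Ifih1, Eif2ak2 and Dhx58 higher, and Mavs (adjusted p = 0.0291) and Tbk1 (adjusted p = 0.0117) lower in p53KO. That fit called more genes in general, 5586 of 13133.

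**Figure D1:**
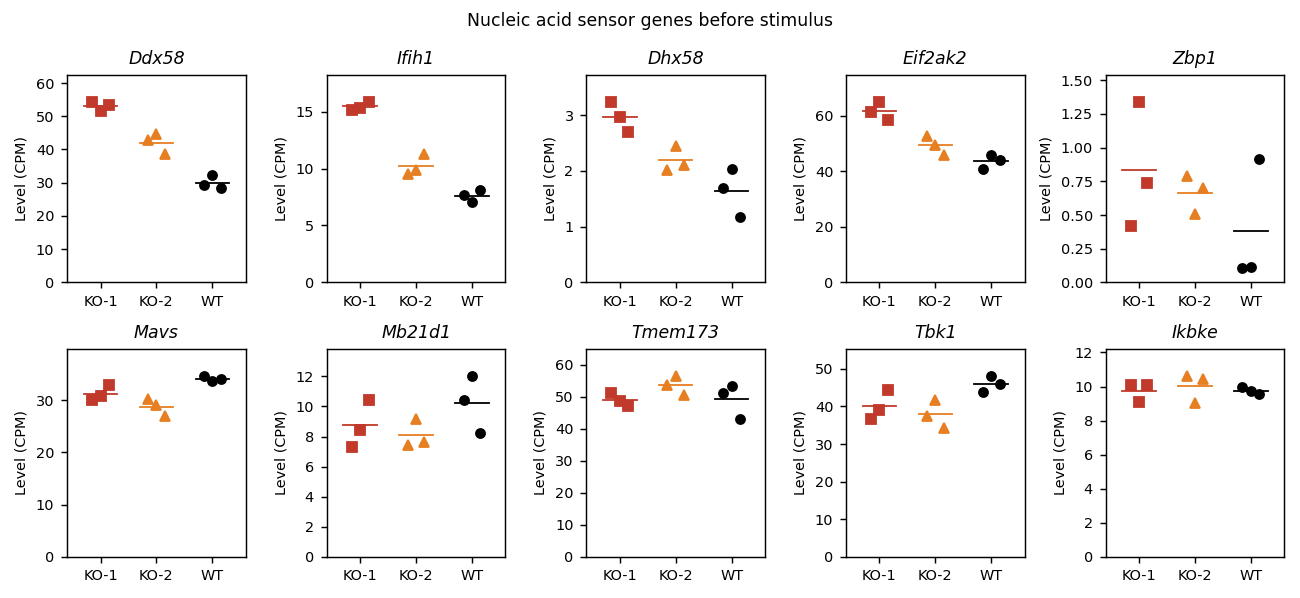
Level (CPM) of each sensor gene in the 3 libraries at 0 h of KO-1 (red squares), KO-2 (orange triangles) and WT (black circles); points are libraries and bars are means. All p53KO libraries lie above all WT libraries for Ddx58, Ifih1 and Eif2ak2, and KO-1 lies above KO-2 in these 3 genes.

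The same order was seen after stimulation for Ddx58, Ifih1 and Eif2ak2, in libraries of the same lines. At each of the 15 combinations of stimulus and time, both p53KO libraries were above the WT library for Ddx58, Ifih1 and Eif2ak2, and at 14 of 15 for Dhx58. Zbp1 had both p53KO libraries above WT at 12 of 15. Mavs did so at 1, Mb21d1 at 3, Tbk1 and Ikbke at 4 and Tmem173 at 9 of the 15. The libraries of a line are not independent cultures, so these counts are a description. The 15 combinations include those at 0 h that are described above. How many of all genes show this order, here or at 0 h alone, was not counted. With all 15 libraries of each line summed, stimulated ones included, 6 of the 10 genes passed between genotypes, where 5213 of all 12918 genes did. To Ddx58, Ifih1 and Eif2ak2 this adds Dhx58 (higher, adjusted p = 0.00207), Mavs (lower, adjusted p = 0.0333) and Zbp1. Most counts of Dhx58 and of Zbp1 in these sums come from 8 h of LPS. Their calls there say nothing of the level before stimulus.

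Levels can be set against each other only per length of transcript, here CPM per kilobase of merged exons. The lengths join the exons of all annotated transcripts, from another annotation than that of the mm9 counts. Which transcripts were present was not examined, so the order holds for these lengths alone. In p53KO at 0 h the order was led by Tmem173 at 18.7 ± 1.24, followed by Eif2ak2 at 10.9 ± 1.44, Tbk1 at 9.96 ± 0.922, Mavs at 8.96 ± 0.602 and Ddx58 at 6.75 ± 0.918 (SD over 6 libraries of 2 lines). In this order the ranges of Eif2ak2 and Tbk1 overlapped, as did those of Tbk1 and Mavs. Mb21d1 at 2.04 ± 0.297 overlapped with Ifih1 at 1.57 ± 0.360, and Ifih1 with Ikbke (1.097). Dhx58 (0.789) and Zbp1 (0.212) came last. After 8 h of LPS the order in p53KO was led by Eif2ak2 at 55.8 ± 1.08 and Ddx58 at 47.9 ± 3.14 CPM per kilobase (SD, n = 2). Zbp1, the lowest at 0 h, then stood at 17.9 ± 0.842 and ranked 5 of 10.

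After LPS, the helicase, PKR and ZBP1 genes had the largest changes at 8 h and Mavs the smallest. In p53KO, 9 of the 10 genes were higher at 3 h than at 0 h and Mavs was lower, against 21.9% of all genes higher and 22.1% lower. At 8 h, 9 were higher and 0 lower, against 17% and 17.2% of all genes. The median log2 change over the 10 was 1.25 at 3 h and 1.97 at 8 h, beside -0.02 and -0.03 over all genes. Nothing passed within the first hour after LPS, with 0 of the 10 called at 0.5 h (0.527% of all genes) and 0 at 1 h (5.31%). At an unadjusted p under 0.05, 0 and 2 of the 10 passed at these times, and DESeq2 called none. The 10 macrophage markers summed to 340 to 385 CPM at 0 h, 446 to 553 CPM at 3 h and 437 to 538 CPM at 8 h of LPS in p53KO. At 8 h, 5 of them rose and 2 fell, and their part in the sensor levels was not tested.

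Among the helicases, Ifih1 had 104 and 92.3 CPM at 3 h and 190 and 177 CPM at 8 h of LPS in KO-1 and KO-2, against 15.3 and 9.87 CPM at 0 h. The WT library had 31.4 CPM at 3 h and 78.2 CPM at 8 h, against 7.04 CPM at 0 h. The log2 change in p53KO was 2.97 (SE 0.19, adjusted p = 7.12e-13) at 3 h and 3.87 (SE 0.18, adjusted p = 2.22e-15) at 8 h. On the log2 scale, most of the Ifih1 change was present at 3 h. Dhx58 was later. It had 8.47 and 6.28 CPM at 3 h and 49.4 and 56.2 CPM at 8 h, against 2.97 and 2.45 CPM at 0 h, with log2 changes of 1.45 (SE 0.27) and 4.29 (SE 0.23, adjusted p = 5.91e-15). In WT, Dhx58 stood at 2.79 CPM at 3 h and 23.8 CPM at 8 h, against 2.04 CPM at 0 h. Ddx58 reached 158 and 162 CPM at 3 h and 322 and 353 CPM at 8 h, against 51.5 and 44.7 CPM at 0 h, and its log2 changes were 1.74 (SE 0.13) and 2.81 (SE 0.12, adjusted p = 1.27e-15). The WT library of Ddx58 had 83.6 CPM at 3 h and 228 CPM at 8 h, against 32.5 CPM at 0 h. For each helicase, both p53KO libraries at 3 h and at 8 h stood above all 0 h libraries of p53KO. For Dhx58, an antisense gene (Dhx58os, 74 counts in all libraries) overlaps and the strand setting of the counting is not given, so reads of the pair cannot be told apart.

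PKR and ZBP1 followed the helicases. Eif2ak2 had 158 and 138 CPM at 3 h and 289 and 282 CPM at 8 h of LPS in KO-1 and KO-2, against 65.1 and 49.4 CPM at 0 h, with log2 changes of 1.37 (SE 0.11) and 2.32 (SE 0.11, adjusted p = 2.95e-15). Its WT library had 64.9 CPM at 3 h and 196 CPM at 8 h, against 45.8 CPM at 0 h. Zbp1 showed the largest change of the 10. It reached 5.39 and 6.16 CPM at 3 h and 60.9 and 65.1 CPM at 8 h, against 1.34 and 0.506 CPM at 0 h, fitted log2 changes of 2.67 and 6.11 (adjusted p = 2.03e-15 at 8 h) that rest on 14 and 6 counts at 0 h and are given without SE. In WT, Zbp1 had 223 counts at 8 h of LPS and 1 count at 0 h, a ratio of 209 (95% interval 37.1 to 8280 for counting error alone). An unnamed antisense gene with 111 counts overlaps Eif2ak2.

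The DNA arm moved less. Mb21d1 had 22.3 and 16.2 CPM at 3 h and 20.5 and 18 CPM at 8 h of LPS in p53KO, against 8.43 and 9.19 CPM at 0 h, a log2 change of 1.12 (SE 0.15) at both times (adjusted p = 1.26e-06 and 1.21e-06). Its WT library had 16.2 CPM at 3 h and 14.7 CPM at 8 h, against 12.03 CPM at 0 h. Tmem173 had 61.4 and 74.9 CPM at 3 h and 64.2 and 78.2 CPM at 8 h in p53KO, against 48.8 and 56.6 CPM at 0 h. Its log2 change was 0.37 (SE 0.11, adjusted p = 0.00723) at 3 h and 0.43 (SE 0.11, adjusted p = 0.00241) at 8 h. The Tmem173 calls were lost without the KO-1 library at 0 h (adjusted p = 0.109 at 3 h and 0.0568 at 8 h). They were also lost without the KO-2 library of the same time (adjusted p = 0.168 and 0.0885). Mavs, the adaptor of the RNA arm, fell to 21.8 and 22.0 CPM at 3 h, against 30.8 and 29.0 CPM at 0 h (log2 -0.45, SE 0.11, adjusted p = 0.00127), and at 8 h had 31.3 and 34.8 CPM (log2 0.15, SE 0.10, adjusted p = 0.256).

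The kinase genes changed by unlike amounts. Ikbke had 18.6 and 17.97 CPM at 3 h and 25.8 and 29.7 CPM at 8 h of LPS in p53KO, against 9.10 and 9.02 CPM at 0 h. Its log2 change was 1.01 (SE 0.19, adjusted p = 0.000123) at 3 h and 1.61 (SE 0.18, adjusted p = 6.41e-08) at 8 h. In WT it had 25.2 CPM at 3 h and 29.5 CPM at 8 h, against 9.76 CPM at 0 h. Tbk1 had 64.0 and 57.4 CPM at 3 h and 58.0 and 50.0 CPM at 8 h in p53KO, against 39.1 and 41.7 CPM at 0 h, with log2 changes of 0.59 (SE 0.12, adjusted p = 0.000218) and 0.42 (SE 0.12, adjusted p = 0.00671). The 8 h call of Tbk1 was lost without the KO-1 library at 0 h (adjusted p = 0.0600) or at 8 h (adjusted p = 0.109). The WT library had 45.7 CPM at 3 h and 53 CPM at 8 h, against 48.1 CPM at 0 h.

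**Figure D2:**
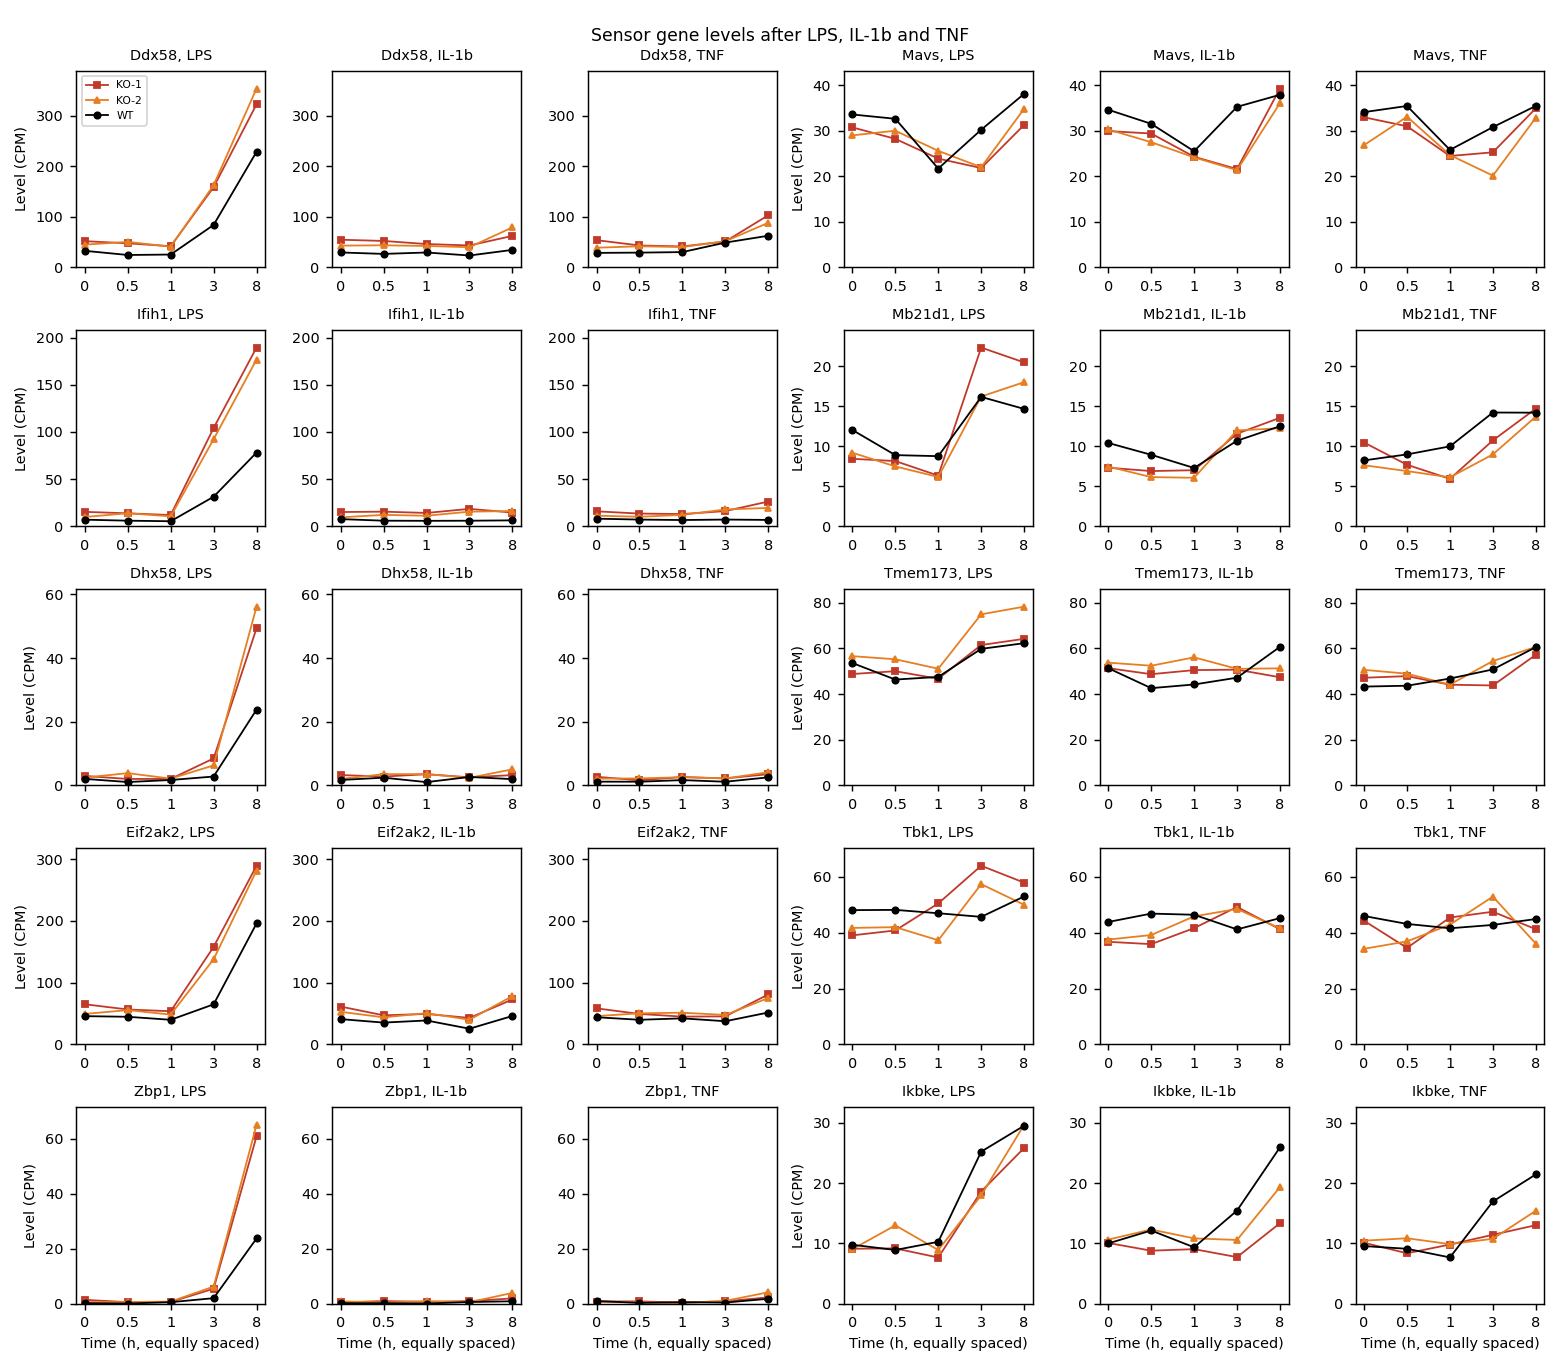
Level (CPM) of each sensor gene in every library against time after LPS, IL-1b or TNF (h, equally spaced), with KO-1 as red squares, KO-2 as orange triangles and WT as black circles. The panels of 1 gene share an axis; after 8 h of LPS, Ifih1 reached 190 and 177 CPM in p53KO and 78.2 CPM in WT, while Mavs had its lowest p53KO levels at 1 or 3 h of each stimulus.

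After the cytokines fewer of the genes passed than after LPS, while Mavs changed about as much at 3 h of IL-1b as of LPS. At 3 h of IL-1b, 2 genes rose (21% of all genes) and 2 fell (21.7%), and at 3 h of TNF 1 rose (18.4%) and 1 fell (17.6%), shares that lay near those of all genes. Mavs fell after both cytokines at 3 h, to 21.6 and 21.4 CPM in KO-1 and KO-2 after IL-1b, against 29.9 and 30.3 CPM at 0 h (log2 -0.49, SE 0.10, adjusted p = 0.000502). After TNF it had 25.3 and 20.1 CPM, against 33.0 and 26.9 CPM (log2 -0.39, SE 0.11, adjusted p = 0.00641). The WT library of Mavs had 35.3 CPM at 3 h of IL-1b, against 34.6 CPM at 0 h. At 3 h of TNF it had 30.8 CPM, against 34.1 CPM at 0 h. In p53KO, Tbk1 rose after both cytokines. IL-1b gave a log2 change of 0.40 (SE 0.12, adjusted p = 0.00880) and TNF gave 0.35 (SE 0.12, adjusted p = 0.0255). IL-1b also raised Mb21d1 to 11.6 and 11.98 CPM, against 7.32 and 7.46 CPM at 0 h (log2 0.67, SE 0.16, adjusted p = 0.00173). Eif2ak2 fell to 43.0 and 40.1 CPM at 3 h of IL-1b, against 61.3 and 52.9 CPM at 0 h (log2 -0.46, SE 0.12, adjusted p = 0.00268). Without the KO-1 library at 0 h of IL-1b, the calls of Eif2ak2 and Tbk1 were lost (adjusted p = 0.0585 and 0.0523). After TNF, the call of Mavs was lost with DESeq2 (adjusted p = 0.0547), without the KO-1 library at 0 h (adjusted p = 0.162) or the KO-2 library at 3 h (adjusted p = 0.135), and that of Tbk1 without the KO-2 library at 0 h (adjusted p = 0.363) or at 3 h (adjusted p = 0.164).

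By 8 h, 6 genes had risen after IL-1b and 5 after TNF, and none had fallen. Of all genes, 12.5% were higher and 11.8% lower at 8 h of IL-1b, and 14.5% were higher and 14.1% lower at 8 h of TNF. The median log2 change over the 10 was 0.47 after IL-1b and 0.61 after TNF, beside 0.00 and -0.01 over all genes. Ddx58 reached 61.9 and 78.8 CPM after IL-1b, against 54.4 and 42.8 CPM at 0 h (log2 0.53, SE 0.13, adjusted p = 0.00349). After TNF it reached 103 and 87.8 CPM, against 53.5 and 38.6 CPM (log2 1.06, SE 0.13, adjusted p = 1.31e-06). Both p53KO libraries at 8 h of TNF stood above all 0 h libraries of Ddx58. Zbp1 had 1.88 and 3.87 CPM after IL-1b, against 0.416 and 0.790 CPM at 0 h (fitted log2 2.23, adjusted p = 0.000616), and 2.25 and 4.11 CPM after TNF, against 0.738 and 0.704 CPM (fitted log2 1.97, adjusted p = 0.00268). For Mb21d1, IL-1b gave a log2 change of 0.80 (SE 0.16, adjusted p = 0.000544) and TNF one of 0.67 (SE 0.16, adjusted p = 0.00302). For Eif2ak2, IL-1b gave 0.40 (SE 0.11, adjusted p = 0.00900) and TNF 0.59 (SE 0.12, adjusted p = 0.000406).

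A further 3 genes passed after 1 cytokine in this fit. Ifih1 had 26.2 and 19.5 CPM at 8 h of TNF in KO-1 and KO-2, against 15.9 and 11.3 CPM at 0 h (log2 0.80, SE 0.21, adjusted p = 0.00533), while its WT library had 6.78 CPM, against 8.10 CPM at 0 h. Ikbke had 13.3 and 19.3 CPM at 8 h of IL-1b, against 10.1 and 10.6 CPM at 0 h (log2 0.66, SE 0.19, adjusted p = 0.0107), and its WT library had 25.9 CPM, against 9.98 CPM at 0 h. Mavs had 39.3 and 36.1 CPM at 8 h of IL-1b, against 29.9 and 30.3 CPM at 0 h (log2 0.32, SE 0.10, adjusted p = 0.0151), a call lost with DESeq2 (adjusted p = 0.106) and with no filter (adjusted p = 0.0524). Several of these calls rested on single libraries. Without the KO-2 library at 0 h of IL-1b, 3 of the 10 genes passed at 8 h of IL-1b (Ddx58, Eif2ak2 and Mavs lost, adjusted p = 0.0980, 0.136 and 0.0662), and without the KO-2 library at 8 h 3 passed (Ddx58, Eif2ak2 and Ikbke lost, adjusted p = 0.106, 0.0748 and 0.254). Mavs was also lost without the KO-1 library at 0 h or at 8 h (adjusted p = 0.0785 and 0.144), and Ikbke without the KO-1 library at 0 h (adjusted p = 0.0723). After TNF, 3 passed without the KO-1 library at 8 h and 3 without the KO-2 library at 0 h, with Ifih1 (adjusted p = 0.213 and 0.119) and Mb21d1 (adjusted p = 0.0631 and 0.101) lost in both. Within the first hour, 0 of the 10 were called at 0.5 h and 1 h of IL-1b (7.39% and 5.94% of all genes) and of TNF (0.751% and 5.85%). At an unadjusted p under 0.05 these counts were 1 and 1 for IL-1b and 0 and 2 for TNF, and DESeq2 called none. Over all genes, the IL-1b 0.5 h count ranged from 164 to 653 when 1 library was left out, and 0 of the 10 sensor genes passed in each case. Without the KO-2 library at 0 h of TNF, Mavs (adjusted p = 0.0400) and Mb21d1 (adjusted p = 0.0247) were lower at 1 h.

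**Figure D3:**
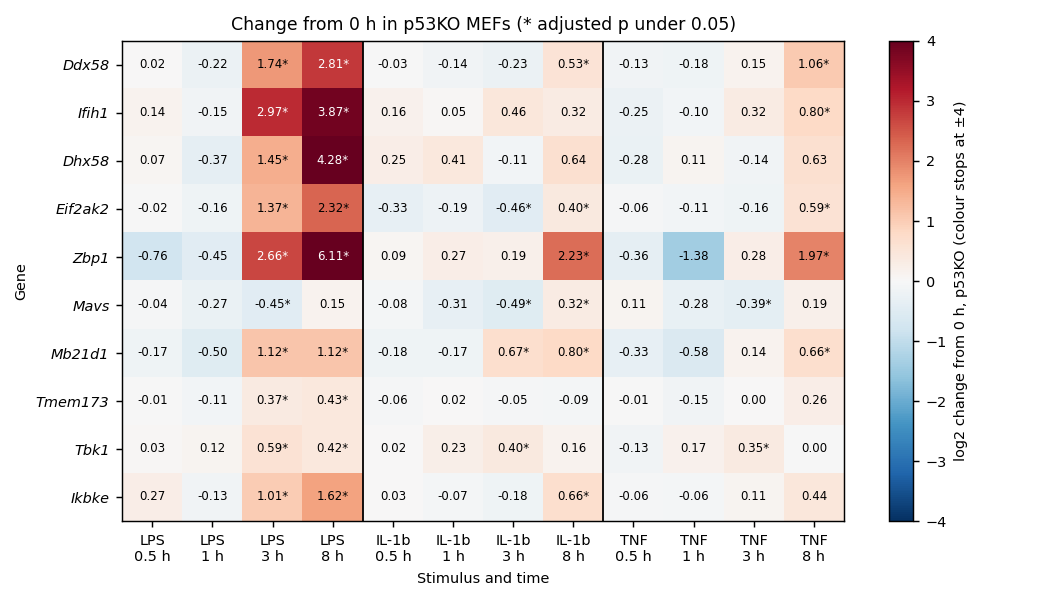
Change from 0 h of the same series (log2, colour and number) of each sensor gene in p53KO after LPS, IL-1b and TNF, with stars for an adjusted p under 0.05. The 19 starred cells of LPS all lie at 3 and 8 h, from -0.45 for Mavs at 3 h to 6.11 for Zbp1 at 8 h.

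The difference between stimuli was tested itself, as an F test over the 4 times in p53KO. LPS differed from IL-1b for 7 of the 10 genes, against 6.91% of all genes, and from TNF for 7, against 5.14%. Ddx58, Ifih1, Dhx58, Eif2ak2, Zbp1 and Ikbke passed in both, with adjusted p = 0.00428 or lower against IL-1b and 0.00681 or lower against TNF. Tmem173 passed against IL-1b alone (adjusted p = 0.0177) and Mb21d1 against TNF alone (adjusted p = 0.0313). IL-1b and TNF differed for 0 of the 10, against 1.42% of all genes. For that pair 2 of the 10 had an unadjusted p under 0.05, and DESeq2 was not run on these F tests. The largest of those differences at 8 h was that of Ddx58, where IL-1b minus TNF was -0.53 (SE 0.18) on the log2 scale. In other fits, the F test of Ddx58 for this pair passed with no filter (adjusted p = 0.000255). It also passed with 0 h libraries pooled (adjusted p = 0.0110), where 3171 of 13851 genes did. Ifih1 passed with no filter (adjusted p = 0.00571) and Tmem173 with the line as a replicate block (adjusted p = 0.0451).

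At single times, LPS exceeded IL-1b for 4 genes at 3 h (1.41% of all genes) and 6 at 8 h (3.43%). It exceeded TNF for 4 at 3 h (1.63%) and 6 at 8 h (3.47%). At 8 h the 6 were Ddx58, Ifih1, Dhx58, Eif2ak2, Zbp1 and Ikbke in both comparisons. Their log2 differences from IL-1b were 2.28 (SE 0.18) for Ddx58, 3.56 (SE 0.28) for Ifih1, 3.65 (SE 0.37) for Dhx58, 1.92 (SE 0.15) for Eif2ak2 and 0.96 (SE 0.26) for Ikbke. Those from TNF were 1.75 (SE 0.18), 3.07 (SE 0.28), 3.66 (SE 0.39), 1.73 (SE 0.16) and 1.18 (SE 0.27) in the same order. Zbp1 is left out of these values for its few counts at 0 h. Its fitted change at 8 h of LPS was the largest of all the sensor genes. Mavs differed by -0.18 (SE 0.14) from IL-1b and -0.04 (SE 0.14) from TNF at 8 h, with neither passing. The call of Mb21d1 against TNF was lost without any 1 of 6 libraries (adjusted p from 0.05001 to 0.239), that of Tmem173 against IL-1b without the KO-1 IL-1b library or the KO-2 LPS library at 8 h (adjusted p = 0.0613 and 0.0640), and that of Ikbke against TNF without the KO-1 TNF library at 8 h (adjusted p = 0.0696).

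**Figure D4:**
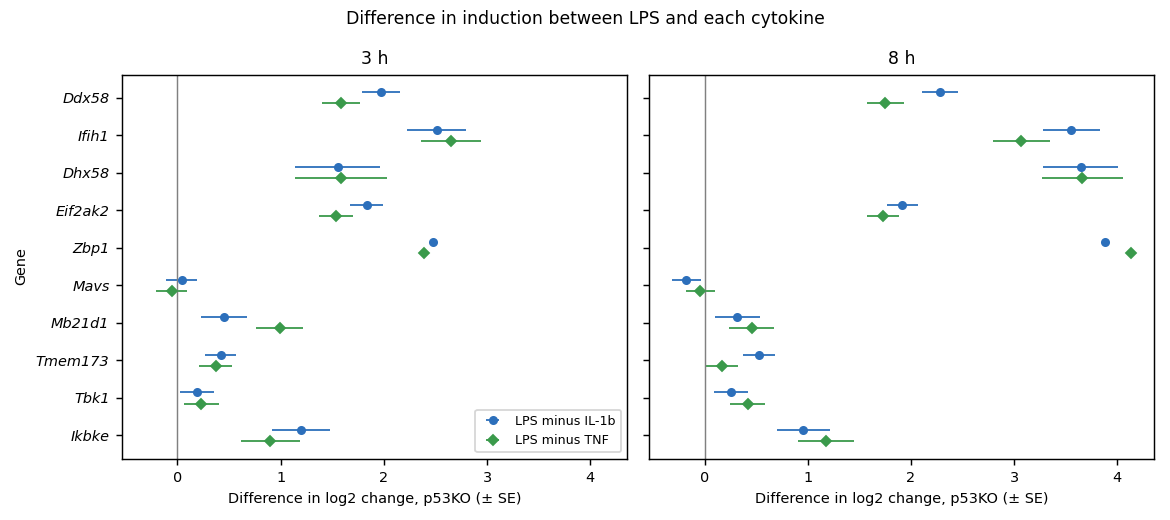
Difference in log2 change from 0 h between LPS and IL-1b (blue circles) and between LPS and TNF (green diamonds) in p53KO at 3 and 8 h, with bars for the SE; Zbp1 has no SE. Among genes with an SE, Dhx58 and Ifih1 differed by more than 3 at 8 h, and Mavs lay between -0.18 and 0.04 in all 4 comparisons.

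Whether the genotype changed the response, and not the starting level alone, was tested as the difference in induction over the 4 times. Of the 10 genes, 0 passed for IL-1b (5.74% of all genes), 0 for TNF (0.462%) and 1 for LPS (2.66%). At an unadjusted p under 0.05 the counts were 3, 2 and 4, and DESeq2 was not run on these tests. The gene was Eif2ak2 (adjusted p = 0.0336). Its induction by LPS was larger in the 2 p53KO libraries than in the 1 WT library by a log2 of 0.87 (SE 0.20, adjusted p = 0.0330) at 3 h, where 0.585% of all genes were larger in p53KO, and by 0.23 (SE 0.19) at 8 h. DESeq2 called 1 of the 10 at that time as well. The F test lost its call without the KO-1 library at 3 h of LPS (adjusted p = 0.166), and without the KO-2 library at 3 h Mb21d1 passed in addition (adjusted p = 0.0463). WT has 1 library per group, so its spread was not measured and was assumed to equal that of p53KO in all of these tests.

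At 3 h of LPS, Tbk1 and Mb21d1 had the next larger differences by p. Tbk1 changed by 0.59 in p53KO and -0.07 in WT, a difference of 0.66 (SE 0.21, adjusted p = 0.161). Mb21d1 changed by 1.12 in p53KO and 0.43 in WT, a difference of 0.70 (SE 0.27, adjusted p = 0.276), and by 1.12 and 0.29 at 8 h, a difference of 0.84 (SE 0.26, adjusted p = 0.169). By 8 h, Ddx58 had changed by 2.81 in both genotypes, a difference of 0.00 (SE 0.22), and Ikbke by 1.61 in p53KO and 1.60 in WT. Ikbke after the cytokines lay the other way. At 8 h it had changed by 0.66 in p53KO and 1.38 in WT after IL-1b, a difference of -0.72 (SE 0.32, adjusted p = 0.554), and by 0.44 and 1.17 in p53KO and WT after TNF, a difference of -0.73 (SE 0.35, adjusted p = 0.600).

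**Figure D5:**
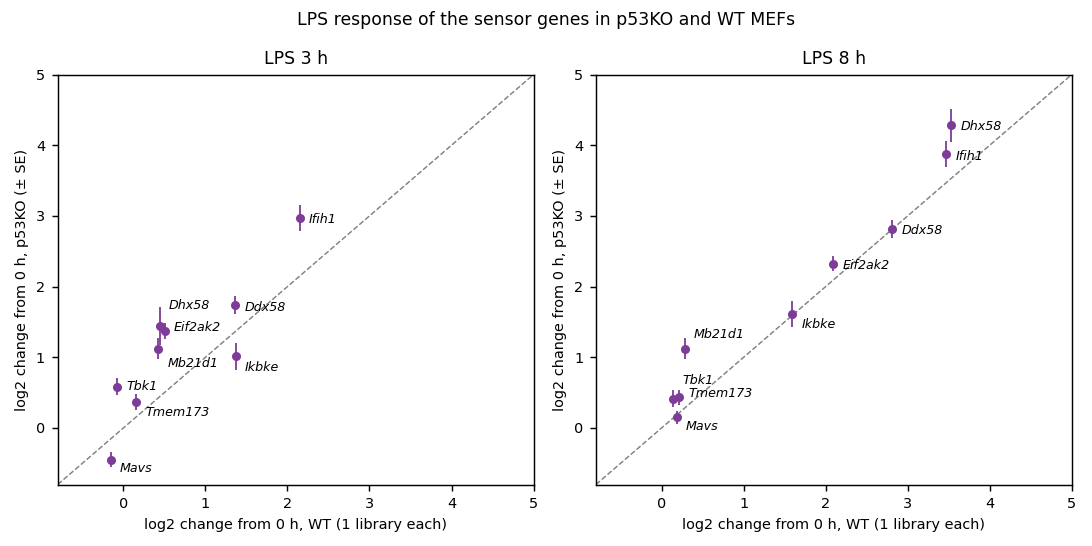
Change from 0 h (log2) after 3 and 8 h of LPS in p53KO (vertical axis, with SE) against WT (horizontal axis, 1 library at each time), with the line of equal change dashed; Zbp1, with 1 count at 0 h in WT, is left out. At 3 h Eif2ak2 lies at 1.37 in p53KO and 0.50 in WT, and at 8 h at 2.32 and 2.09.

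Ifnb1, the gene of interferon beta, had 23 counts in all 45 libraries, of which 13 were in the 2 p53KO libraries at 3 h of LPS (0.826 ± 0.102 CPM, SD, n = 2) and 0 in the 6 p53KO libraries and the 3 WT libraries at 0 h. Of the other genes listed for this pathway, 7 could be tested. At 8 h of LPS 6 had risen in p53KO, against 17% of all genes, among them Stat2, a transcription factor of the interferon response, which reached 275 ± 14.6 CPM, against 44.2 ± 8.05 CPM at 0 h (log2 2.64, SE 0.15, adjusted p = 1.47e-13). The median log2 change of the 7 was 0.89, beside -0.03 over all genes. At 0 h, 3 of the 7 were higher in p53KO than in WT and 0 lower, against 14% and 11.6% of all genes, with a median of 0.24. Irf9, which encodes a DNA-binding partner of STAT2, differed by a log2 of 0.87 (SE 0.13, adjusted p = 0.000129) and Stat2 by 0.96 (SE 0.15, adjusted p = 0.000180). The count of 0 for Ifnb1 at 0 h allows up to 3 counts in the summed libraries of each genotype. Ifnb1 was thus not detected at this depth in either genotype.

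The lists of partners are read against 17% of all genes higher and 17.2% lower at 8 h of LPS, and 14% higher and 11.6% lower in p53KO at 0 h, and several of their counts lie near these shares. Of 11 regulators of the RIG-I-like receptors, 6 rose and 2 fell at 8 h of LPS in p53KO (median log2 0.22), with Zc3hav1, which encodes the zinc finger antiviral protein, at 279 ± 12.9 CPM, against 68.5 ± 7.57 CPM at 0 h (log2 2.03, SE 0.10, adjusted p = 5.21e-15). Trim25, a ubiquitin ligase of RIG-I signalling, rose by 1.73 (SE 0.11, adjusted p = 4.23e-12). At 0 h, 0 of the 11 were higher and 1 lower in p53KO, the RNase gene Zc3h12a (log2 -0.65, SE 0.17, adjusted p = 0.0117), and Traf3, an adaptor downstream of MAVS, differed by -0.21 (SE 0.09, adjusted p = 0.110). Of 15 genes for DNA sensing partners and enzymes that remove self nucleic acid, 14 could be tested at 8 h of LPS, where 7 rose and 1 fell (median log2 0.57). Ifi204, of the family of AIM2-like receptors, had 176 ± 2.05 CPM, against 5.80 ± 1.28 CPM at 0 h (log2 4.93, SE 0.17, adjusted p = 8.51e-19), and Ifi205 of the same family had 86.7 ± 1.73 CPM, against 0.492 ± 0.0190 CPM (fitted log2 7.42, adjusted p = 2.44e-18, 11 counts at 0 h). In this list 1 of 13 genes was higher and 0 lower in p53KO at 0 h, the ubiquitin ligase gene Rnf5 (log2 0.33, SE 0.11, adjusted p = 0.0427), and Samhd1 differed by -0.21 (SE 0.08, adjusted p = 0.0669).

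Of 8 genes for kinase partners and their transcription factors, 4 rose and 0 fell at 8 h of LPS (median log2 0.34). Irf7, the interferon-inducible relative of IRF3, had 236 ± 13.2 CPM, against 5.72 ± 0.579 CPM at 0 h (log2 5.37, SE 0.19, adjusted p = 1.32e-18), and Irf5 rose by 1.65 (SE 0.14, adjusted p = 2.85e-10). At 0 h, 3 of the 8 were higher and 1 lower in p53KO. Irf7 was higher by 0.97 (SE 0.25, adjusted p = 0.00804), and Tank, a scaffold of TBK1, was lower by a log2 of -0.42 (SE 0.09, adjusted p = 0.00314). Of 11 partners of PKR and ZBP1, 6 rose and 0 fell at 8 h of LPS (median log2 0.27), led by Mlkl, the executioner of necroptosis (log2 3.29, SE 0.16, adjusted p = 3.02e-15), and Casp8 (log2 0.57, SE 0.08, adjusted p = 1.46e-06). At 0 h, 1 of these was higher and 3 were lower in p53KO, among them Ripk3, the kinase that ZBP1 binds (log2 -0.49, SE 0.09, adjusted p = 0.000691), and Dnajc3, an inhibitor of PKR (log2 -0.41, SE 0.08, adjusted p = 0.00113).

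Across the 45 libraries, log2 levels centred within each line were correlated as a description, over libraries that share lines and stimuli. Among the sensors, the 5 receptors Ddx58, Ifih1, Dhx58, Eif2ak2 and Zbp1 were the most alike, with Pearson r of 0.88 to 0.96 between pairs. Mavs had r of -0.40 with Tbk1 and at most 0.38 with any other of the 10. Outside the 10, Ddx58 was most like Rnf213 (r = 0.976), Zc3hav1 (0.974) and Parp9 (0.973). For Eif2ak2, Rnf213 (0.967) and Ifi44 (0.964) were among the 3 most alike, and Ifih1 was most like Samd9l (0.98), Ifit3 (0.979) and Ifit3b (0.975). Dhx58 was most like Bst2 (0.959), H2-T23 (0.956) and Lgals3bp (0.953). Zbp1 was most like Gbp3 (0.947), Adar (0.944) and Ifitm3 (0.935). For Mb21d1 the nearest genes were Rnf114 (0.897), Znfx1 (0.896) and Il13ra1 (0.895), and for Tmem173 Gbp7 (0.859), Trim34a (0.834) and Igtp (0.829). Ikbke was most like Ttc39c (0.911), Ccl5 (0.908) and C3 (0.889), Tbk1 most like Elf1 (0.805), Stt3a (0.768) and Srpr (0.766), and Mavs most like Zfp30 (0.875), Pbx2 (0.859) and Gid4 (0.858).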

How the data were processed

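Poly(A) RNA from 45 MEF samples was sequenced as paired-end 50 bp reads from a stranded kit, per the labels' protocols. The authors deposited raw counts of reads per Ensembl gene; STAR, featureCounts, DESeq and the build mm9 are named in the submitters' processing notes without versions, and the strand setting is not given in the sources used here. The 5 rows that name no gene (24.65% of counts) were left out, and 32919 of 37991 IDs have a symbol. Genotype, line, stimulus and time came from the sample titles; the replicate number of p53KO was read as a line, whose origin the labels do not describe.

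Changes with time were fitted with edgeR 4.0.16 (R 4.3.3) by quasi-likelihood over 30 groups with TMM scaling, for the 13851 genes that reached 1 CPM in 2 or more libraries (15 residual degrees of freedom). Genotypes before stimulus were compared on 0 h counts summed per line, for the 12993 genes that reached 1 CPM in 1 or more lines. P-values were adjusted by Benjamini-Hochberg over all genes tested, with a threshold of 0.05. WT groups of 1 library were assumed to vary like p53KO. SEs came from the fitted information and moderated dispersion, and none is given where counts were few. Intervals and floors cover counting error alone. The code was tested on simulated data. Alternatives were DESeq2 1.42.0 (test and size factors), no filter, the line as a block, p53KO alone, pooled or separate 0 h libraries, all libraries summed per line, and leaving out libraries.

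The genes and pathway lists were chosen with earlier results of these data known. All 10 sensor genes are named. In each list, up to 2 genes with the smallest adjusted p at 8 h of LPS and up to 2 between genotypes at 0 h are named, plus Ifnb1, and for each sensor the 3 other genes with the highest r of log2 CPM (prior count 2). One gene that this rule names is not reported here.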

Additional observations from a re-analysis of the deposited data

Results flagged for a closer look

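The response of Eif2ak2, the PKR gene, to LPS was larger in the p53KO libraries than in the WT library by a test of the difference, in which the spread of WT was assumed and not measured. The F test over the 4 times in edgeR gave an adjusted p = 0.0336. At 3 h the log2 change was 1.37 in p53KO and 0.50 in WT, a difference of 0.87. Both p53KO libraries (158 and 138 CPM) lay above the WT library (64.9 CPM) at that time. WT rests on 1 library at each time, and without the KO-1 library at 3 h the F test gave an adjusted p = 0.166.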

How the results depend on the processing

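No called value of a sensor gene changed sign under any alternative run, and DESeq2 size factors and p53KO libraries alone changed no call. Before stimulus, 3 genes passed, against 1 with DESeq2, 6 with 0 h libraries fitted separately and 6 with all libraries of each line summed; without a filter Eif2ak2 was lost (adjusted p = 0.101), and without the TNF series Mb21d1 was lower in p53KO (adjusted p = 0.0497). Without a filter, counts became 1 at IL-1b 0.5 h (0 in the report), 1 for the genotype difference after IL-1b (0), 1 after TNF (0) and 2 for IL-1b minus TNF (0), 5 at IL-1b 3 h (4) and 5 at IL-1b 8 h (6). With 0 h libraries pooled they became 1 at IL-1b 0.5 h, 1 at IL-1b 1 h, 2 at TNF 1 h, 4 at TNF 3 h (2 in the report), 1 at LPS 1 h, 1 for the genotype difference after IL-1b and 1 for IL-1b minus TNF, and also 5 at IL-1b 3 h, 7 at IL-1b 8 h, 7 at TNF 8 h (5), 9 for LPS minus IL-1b (7) and 9 for LPS minus TNF (7). DESeq2 gave 1 at TNF 3 h and 5 at IL-1b 8 h. Same-numbered p53KO libraries deviated together in part (median r 0.203 over 105 pairs of groups, -0.152 to 0.522, with 73 over 0.1). The main fit of the time courses left this pairing out, while the genotype test at 0 h summed counts per line. With the line as a replicate block, counts became 1 at IL-1b 0.5 h, 1 at IL-1b 1 h, 1 at TNF 1 h and 1 for IL-1b minus TNF. They also became 5 at IL-1b 3 h (Ifih1 gained, adjusted p = 0.0138) and 7 at TNF 8 h (Tmem173 and Ikbke gained, adjusted p = 0.0101 and 0.0215). No call was lost with the block. Leaving out 1 library gave 3 to 5 at IL-1b 3 h, 3 to 6 at IL-1b 8 h, 0 to 2 at TNF 1 h, 0 to 2 at TNF 3 h, 3 to 6 at TNF 8 h, 9 to 10 at LPS 3 h, 7 to 9 at LPS 8 h, 0 to 2 for the genotype difference after LPS, 6 to 8 for LPS minus IL-1b, 6 to 7 for LPS minus TNF and 0 to 1 for IL-1b minus TNF (Ddx58 without the KO-1 TNF library at 0 h, adjusted p = 0.0382). The cause of these changes was not tested. Few counts limit what can be said of Zbp1 and Ifnb1 at 0 h.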
